A study of Mus musculus with 31 samples.

Results

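Small nucleolar RNAs (snoRNAs) are short noncoding RNAs that guide chemical modification of ribosomal RNA. Box C/D snoRNAs guide 2′-O-methylation, and box H/ACA snoRNAs guide pseudouridylation. In mammals most of them are cut out of the introns of longer host genes. Noncoding hosts such as *Gas5* and the *Snhg* genes are transcribed by RNA polymerase II and spliced. Several of their spliced RNAs are known substrates of nonsense-mediated decay, and several hosts begin with a pyrimidine tract, the 5′TOP element, that also marks ribosomal protein genes.

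The genes described here are *Gas5* and every gene whose symbol is *Snhg* with a number. The RNA-seq table held 14 of them among 15034 genes, and 13 had a mean of at least 1 TPM (a share of the library's transcripts, corrected for transcript length) over the 12 libraries and were tested among 11287 genes. RefSeq annotates 18 such genes, and the RNA levels of the other 4, *Gas5*, *Snhg9*, *Snhg14*, and *Snhg16*, were not analysed here. The Trim71 CLIP-seq list held 7 peaks that name one of these genes among 498 peaks, 3 in *Gas5* and 4 in *Snhg1*.

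All cells were ES-E14TG2a mouse embryonic stem cells (mESCs), grown in 2i and Lif for the expression profiling. The RNA-seq covered 2 WT libraries, 2 CLIPΔ libraries, 4 *Ago2* KO libraries, and 4 *Ago2* KO/CLIPΔ libraries. CLIPΔ cells lack, on both alleles, the region of the *Ago2* mRNA 3′UTR that Trim71 binds, and *Ago2* KO cells lack the Argonaute protein Ago2. The edited lines grew from single sorted cells. CLIPΔ is represented by independent clones, and which clone gave which library is not stated. The 2 immunoprecipitated CLIP-seq samples came from mESCs with a FLAG tag on both alleles of *Trim71*, an RNA-binding protein. The study uses the name WT for these tagged cells and lists its CLIPΔ and *Ago2* KO lines as tagged too, although the RNA-seq labels do not mention the tag. The CLIP-seq peaks were called over 1 size-matched input. The labels call the libraries biological replicates without saying whether they are separate cultures or clones, so p-values measure the spread between these libraries.

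*Ago2* itself measured 28.2 and 21.6 TPM in WT, 27.3 and 20.3 TPM in CLIPΔ, 1.67 to 2.29 TPM in *Ago2* KO, and 1.51 to 2.88 TPM in *Ago2* KO/CLIPΔ mESCs. The 9 of 10 embryonic stem cell markers with a value summed to between 10072 and 13327 TPM in each library. Single markers differed by limma at adjusted p under 0.05. *Klf4* was lower in CLIPΔ than in WT. In *Ago2* KO against WT, *Klf4* and *Tdgf1* were lower and *Pou5f1* was higher. In *Ago2* KO/CLIPΔ against CLIPΔ, *Nanog* and *Tfcp2l1* were lower and *Pou5f1* was higher. The 5 primitive endoderm markers summed to at most 6.84 TPM and 3 of 5 fibroblast markers to at most 3.73 TPM. The 3 of 4 primed-cell markers with a value summed to 31.1 to 33.8 TPM in WT, 20.6 to 23.4 TPM in CLIPΔ, 13.1 to 18.5 TPM in *Ago2* KO, and 16.5 to 22.5 TPM in *Ago2* KO/CLIPΔ, and their part in the results was not tested. The median log2(TPM + 1) over tested genes was 4.07 to 4.15 in the WT and CLIPΔ libraries and 3.65 to 3.83 in the *Ago2* KO and *Ago2* KO/CLIPΔ libraries. Changes are therefore also given after median centring, which sets these medians equal. With centring, 0 of the 9 stem cell markers were lower and 1 was higher in *Ago2* KO against WT. Against CLIPΔ, 0 were lower and 5 higher in *Ago2* KO/CLIPΔ. Of all genes tested in *Ago2* KO, 42.4% were lower and 14% higher before centring, and 21% lower and 31.5% higher after it. Against CLIPΔ these shares were 42.1% and 12.8% before, and 21% and 30.1% after. Sequencing depth per library is unknown, because TPM values keep none. The genotype and any difference in handling between the sets with and without *Ago2* cannot be told apart, and neither can fewer cells of a type and less RNA per cell.

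The 7 peaks lay on snoRNAs, and none of them overlapped an exon of the RefSeq models of *Gas5* or *Snhg1*. *Gas5* spans chr1:161034601-161038539 on the plus strand (mm10) and holds 9 snoRNA loci in GENCODE, 3 of which carried a peak. *Snhg1* spans chr19:8723487-8726326 on the plus strand and holds 8, of which 4 carried a peak. The peak list places 3 of the 7 in a 5′UTR class and 4 in introns, although both hosts are noncoding. The bases around the peaks are given below, to show where on the snoRNA the peaks sit. Each line gives the first 30 bases of the snoRNA gene, except for Snord22, where the 28 bases under the peak are given. Capitals mark the letters TGATGA, the usual box C sequence, where they occur within the first 20 bases.
Gm22489 (*Gas5*): agcccatgatggtatgagagtagtggacag
Gm22357 (*Gas5*): tgccacaaTGATGAcatcatatttgctact
Snord80 (*Gas5*): ccgataccaTGATGAtaacatagttcagca
Gm25894 (*Snhg1*): ctacggggatgatatgaaaactgaactctc
Gm22680 (*Snhg1*): atataTGATGActttcatagaatctcgttc
Gm23246 (*Snhg1*): ctcacccTGATGAactgaataccgccccag
Snord22 (*Snhg1*): tgggggaaaagaggaaactttgttccag

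In 6 of the 7 peaks, the 5′ end of the peak lay within 5 bases of the 5′ end of the annotated snoRNA, at distances from -3 to 2. The exception was Snord22, where the peak began 79 bases into the gene. The letters TGATGA stood in the first 20 bases of 4 of the 7 snoRNAs, and the peak covered them in all 4. Across the 1558 snoRNA genes of GENCODE, including both box classes, 21.3% hold these letters there. The letters CTGA, the usual box D sequence, occurred near the 3′ end of all 7, and no peak reached them. Of the same 1558 snoRNA genes, 34.8% hold CTGA within their last 20 bases. Both shares mix the box classes, and the share among box C/D genes alone was not computed, so no excess can be read from them. Of the 29 other peaks of the list that lay on a snoRNA gene, in hosts of other names, 13 began within 5 bases of the snoRNA's 5′ end. Their median width was 14 bases, against 39 bases for the 7 peaks in *Gas5* and *Snhg1*.

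**Figure D1:**
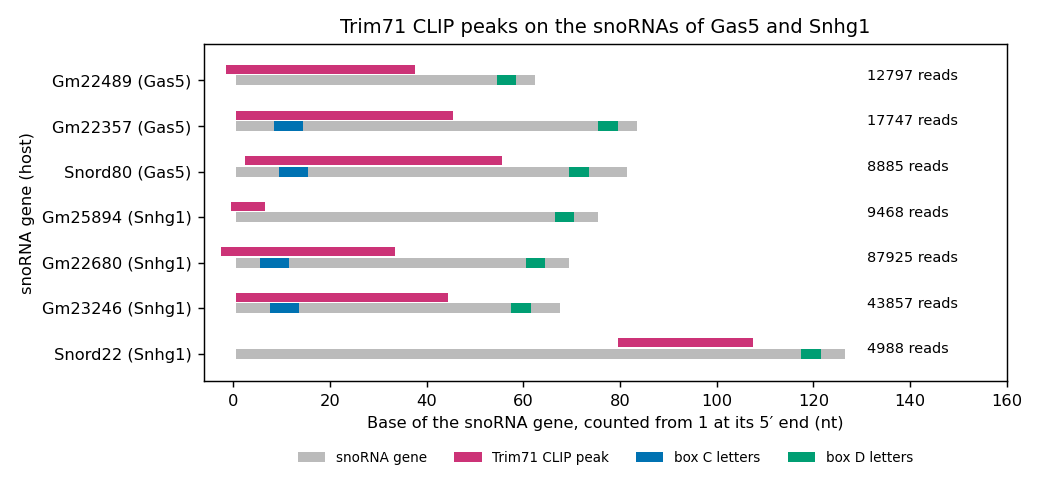
Trim71 CLIP peaks on the 7 snoRNA genes of *Gas5* and *Snhg1*. The horizontal axis counts bases from 1 at the 5′ end of each snoRNA gene, gray bars are the snoRNA genes, magenta bars the peaks, blue and green the letters of boxes C and D, and the numbers are deposited reads per peak. In 6 of the 7 the peak starts within 5 bases of the 5′ end.

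By reads, the peaks in these hosts stood high in the list. The peak on Gm22680 in *Snhg1*, at chr19:8725338-8725373, held 87925 reads and ranked 4 of 498. The peak on Gm23246, at chr19:8725594-8725637, held 43857 reads and ranked 9. The peaks on Gm25894 and Snord22 held 9468 and 4988 reads. In *Gas5*, the peak on Gm22357, at chr1:161036057-161036101, held 17747 reads and ranked 19, and those on Gm22489 and Snord80 held 12797 and 8885 reads. The 7 peaks made up 1.41% of the peaks and 7.17% of the reads in peaks, and the *Snhg1* peaks alone 5.65%. The lowest of the 7 was above the median of all 498 peaks, which was 2280.5 reads. The 29 peaks on snoRNA genes of other hosts also stood above it, with a median of 3900 reads, against 12797 for the 7. Those 29 ranged from 223 to 57974 reads and made up 5.82% of the peaks and 9.91% of the reads. The 7 peaks were also wider, at a median of 39 bases against 6 over all peaks, and reads were not corrected for width. No error can be given, because the replicates are not listed separately. These reads were not set against the abundance of each snoRNA, which was not tested.

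The RNA-seq levels of the 14 hosts ranged widely. By the mean over all 12 libraries, of which 8 lack *Ago2*, *Snhg8*, the host of the H/ACA snoRNA Snora24, was the highest at 378.0 TPM, followed by *Snhg3* (309 TPM), which holds Snora73a and Snora73b, and *Snhg5* (219 TPM), which holds Snord50a and Snord50b. *Snhg1* (174 TPM) came next. The order of the highest hosts differed by genotype, since *Snhg5* (413 ± 14.6 TPM, SD, n = 2) was above *Snhg3* (361 ± 34.2 TPM) in WT, and *Snhg3* (291 ± 83.9 TPM, n = 4) and *Snhg8* (288 ± 21.1 TPM) were alike within their spread in *Ago2* KO. *Snhg12*, *Snhg15*, *Snhg6*, *Snhg7*, *Snhg17*, *Snhg20*, *Snhg4*, and *Snhg11* lay between 87.2 and 15.8 TPM in that order, and *Snhg10* measured 3.96 TPM. *Snhg18* was the lowest, at 0.369 TPM, with single libraries from 0.119 to 1.08 TPM, and was not tested. Neighbours in this order overlapped in their ranges over the 12 libraries, except *Snhg10* (2.62 to 6.02 TPM) and *Snhg18*. The deposited values count reads on the longest transcript of each gene. For *Snhg8* that transcript is a single exon of 785 nt that contains Snora24, so reads of host and snoRNA cannot be told apart. For *Snhg6* it shares exon bases with *Mcmdc2* on the opposite strand.

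**Figure D2:**
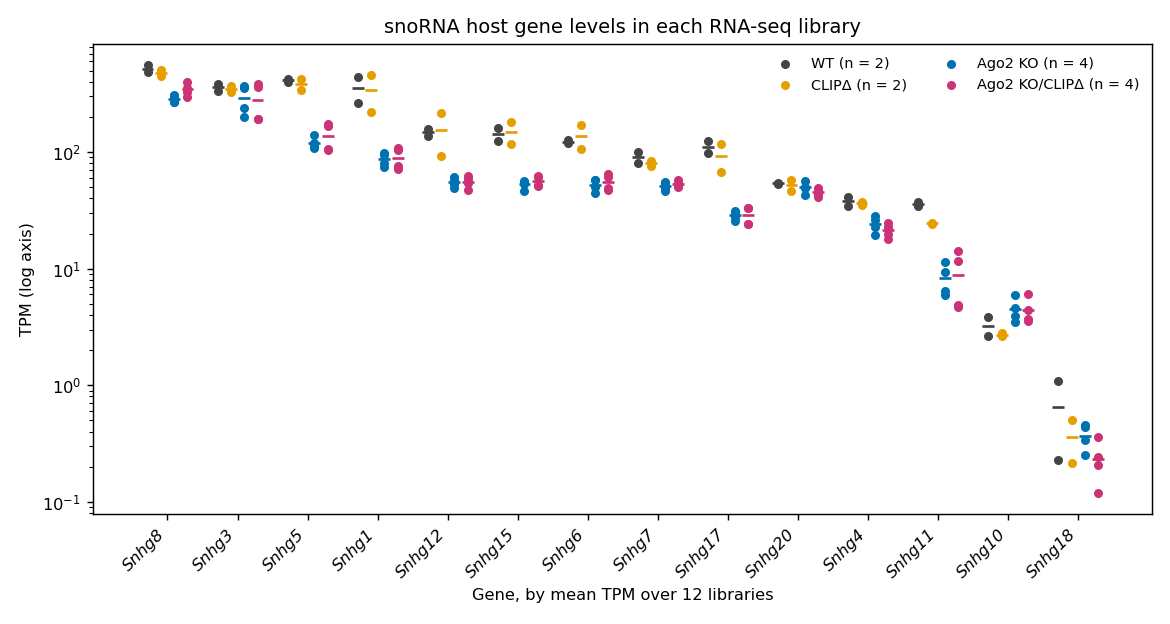
Level of each snoRNA host gene in each of the 12 RNA-seq libraries, in TPM on a log axis, ordered by mean level. Points are libraries and short lines the mean of a genotype. For 10 genes all 4 *Ago2* KO libraries lie below both WT libraries, while the libraries of *Snhg3*, *Snhg20*, and *Snhg10* overlap.

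Most of the hosts were lower in mESCs without *Ago2*. Comparing *Ago2* KO with WT sets cells without Ago2 against cells with it where the Trim71-binding region was not deleted. Comparing *Ago2* KO/CLIPΔ with CLIPΔ does the same in the deletion background. In both, the loss of Ago2 and a difference between clones cannot be told apart. In *Ago2* KO against WT, 10 of the 13 hosts fell and none rose (limma, Benjamini–Hochberg adjusted p under 0.05), where 42.4% of all tested genes fell and 14% rose. The median log2 fold change of the 13 hosts was -1.22, against -0.26 over all genes tested. With median centring, 9 of the 13 fell and *Snhg10* rose, while the share of all genes called lower went from 42.4% to 21.0% and the share called higher to 31.5%. The median of the hosts was then -0.88 and that of all genes 0.09. For 10 hosts every *Ago2* KO library lay below every WT library, as it did for 50.2% of all genes tested.

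*Snhg1*, the host with the most peak reads, measured 442 and 263 TPM in WT and 457 and 219 TPM in CLIPΔ mESCs. It measured 99.1, 94.5, 80.2, and 75.0 TPM in *Ago2* KO, and 76.3, 71.6, 107, and 104 TPM in *Ago2* KO/CLIPΔ mESCs. The groups with and without *Ago2* did not overlap, although replicate 1 of WT and of CLIPΔ was well above replicate 2. *Snhg1* fell in *Ago2* KO to 24.8% of the WT mean, a log2 fold change of -1.96 ± 0.29 (SE, limma adjusted p = 0.000258). In *Ago2* KO/CLIPΔ against CLIPΔ the log2 fold change was -1.83 ± 0.29 (adjusted p = 0.000461).

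*Snhg5*, which hosts Snord50a and Snord50b, measured 403 and 424 TPM in WT, 425 and 339.7 TPM in CLIPΔ, 108.6 to 141 TPM in *Ago2* KO, and 104 to 174 TPM in *Ago2* KO/CLIPΔ libraries. It fell, with log2 fold changes of -1.77 ± 0.21 in *Ago2* KO (limma adjusted p = 7.98e-05) and -1.49 ± 0.21 in *Ago2* KO/CLIPΔ against CLIPΔ (adjusted p = 0.000236). *Snhg17*, with 3 snoRNA loci, measured 124 and 98.8 TPM in WT, 117 and 67.6 TPM in CLIPΔ, and 31.3, 30.5, 25.4, and 27.7 TPM in *Ago2* KO. Its 4 *Ago2* KO/CLIPΔ libraries lay between 24.0 and 33.3 TPM. The groups with and without *Ago2* were apart, and *Snhg17* fell in both comparisons, by log2 fold changes of -1.91 ± 0.21 (adjusted p = 6.30e-05) and -1.62 ± 0.21 (adjusted p = 0.000172).

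*Snhg11*, with 2 snoRNA loci, was lower in level than these. It measured 34.2 and 37.5 TPM in WT, 24.6 and 24.3 TPM in CLIPΔ, 5.95 to 11.3 TPM in *Ago2* KO, and 4.65 to 14.1 TPM in *Ago2* KO/CLIPΔ. Its log2 fold changes were -2.03 ± 0.38 (limma adjusted p = 0.000985) and, against CLIPΔ, -1.51 ± 0.38 (adjusted p = 0.0056). Within the lines without *Ago2*, replicates 1 and 2 were lower than replicates 3 and 4, at 4.65 to 6.43 TPM and 9.39 to 14.1 TPM.

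*Snhg12* hosts 3 H/ACA snoRNAs and the C/D snoRNA Snord99, and *Snhg15* hosts Snora9. *Snhg12* measured 158 and 137 TPM in WT, 216 and 92.0 TPM in CLIPΔ, and 47.2 to 62.0 TPM in the 8 libraries without *Ago2*. *Snhg15* measured 161 and 125 TPM in WT, 181 and 117 TPM in CLIPΔ, and 46.5 to 62.0 TPM in the 8 libraries without *Ago2*. Neither gene overlapped between the sets. In *Ago2* KO, *Snhg12* changed by -1.40 ± 0.25 (limma adjusted p = 0.000803) and *Snhg15* by -1.42 ± 0.17 (adjusted p = 8.30e-05). Against CLIPΔ, *Snhg12* changed by -1.33 ± 0.25 and *Snhg15* by -1.36 ± 0.17. Without CLIPΔ replicate 1 the change of *Snhg12* was -0.72 and still passed (adjusted p = 0.00933).

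*Snhg6*, the host of Snord87, *Snhg8*, *Snhg7*, and *Snhg4* fell as well. *Snhg6* measured 127 and 119.6 TPM in WT, 171 and 106 TPM in CLIPΔ, 44.6 to 58.0 TPM in *Ago2* KO, and 46.9 to 64.4 TPM in *Ago2* KO/CLIPΔ, with changes of -1.22 ± 0.19 and -1.28 ± 0.19. *Snhg8* measured 487 and 555 TPM in WT, 509.6 and 447 TPM in CLIPΔ, 269.5 to 311 TPM in *Ago2* KO, and 299 to 403 TPM in *Ago2* KO/CLIPΔ. It changed by -0.85 ± 0.12 in *Ago2* KO and by -0.47 ± 0.12 against CLIPΔ, and the latter call was lost without CLIPΔ replicate 1 (-0.38, limma adjusted p = 0.0831) and with only replicates 3 and 4 of *Ago2* KO and *Ago2* KO/CLIPΔ (-0.33, adjusted p = 0.0637). *Snhg7*, the host of Snora43 and Snora17, measured 81.4 and 99.2 TPM in WT, 76.6 and 84.6 TPM in CLIPΔ, and 46.4 to 57.7 TPM in the libraries without *Ago2*, with changes of -0.81 ± 0.11 and -0.58 ± 0.11. *Snhg4*, the host of Snora74a, measured 34.7 and 40.9 TPM in WT, 37.1 and 35.4 TPM in CLIPΔ, and 18.1 to 28.4 TPM in the libraries without *Ago2*, with changes of -0.63 ± 0.15 and -0.75 ± 0.15. For these genes median centring mattered. It ended the call of *Snhg4* in *Ago2* KO (-0.29, limma adjusted p = 0.0806), and the calls of *Snhg7* (-0.25, adjusted p = 0.121) and *Snhg8* (-0.14, adjusted p = 0.334) against CLIPΔ.

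*Snhg3*, *Snhg20*, and *Snhg10* were not called lower in either comparison. *Snhg3* measured 385 and 336 TPM in WT, 371 and 325 TPM in CLIPΔ, 371, 353, 202, and 237 TPM in *Ago2* KO, and 381, 362, 193, and 193 TPM in *Ago2* KO/CLIPΔ. In both lines without *Ago2*, replicates 1 and 2 lay within the WT range and replicates 3 and 4 were below every WT library. The *Ago2* KO difference of *Snhg3* was -0.35 ± 0.31 (95% interval -1.04 to 0.33), 0.0081 with replicates 1 and 2 alone, and -0.72 with replicates 3 and 4 alone in the lines without *Ago2* (limma adjusted p = 0.00533). *Snhg20* measured 53.7 to 54.3 TPM in WT and 43.2 to 56.9 TPM in *Ago2* KO, a difference of -0.12 with a 95% interval from -0.39 to 0.15. *Snhg10*, the host of the Cajal body RNA Scarna13, measured 2.62 and 3.85 TPM in WT, 2.78 and 2.64 TPM in CLIPΔ, 3.51, 3.93, 4.57, and 5.996 TPM in *Ago2* KO, and 3.53 to 6.02 TPM in *Ago2* KO/CLIPΔ. Its libraries overlapped between *Ago2* KO and WT but not between *Ago2* KO/CLIPΔ and CLIPΔ. A rise was called against CLIPΔ only (0.52 ± 0.21, limma adjusted p = 0.0495), and in *Ago2* KO it was 0.37 ± 0.21 (adjusted p = 0.144). The call against CLIPΔ was close to the threshold and was lost under most alternatives, among them the replicate block (0.32, limma adjusted p = 0.0597) and leaving out either CLIPΔ library (0.55 and 0.50). With median centring, *Snhg10* rose in both comparisons, by 0.72 and 0.86.

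In *Ago2* KO/CLIPΔ against CLIPΔ, 10 of the 13 hosts fell and 1 rose, where 42.1% of all genes tested fell and 12.8% rose. The median fold change of the hosts was -1.28 and that of all genes -0.25. The 10 that fell were those that fell in *Ago2* KO against WT, and 35.2% of all genes tested fell in both comparisons. The comparisons share no library, but same-numbered libraries of WT and CLIPΔ, and of *Ago2* KO and *Ago2* KO/CLIPΔ, deviated together. Every *Ago2* KO/CLIPΔ library lay below every CLIPΔ library for 10 hosts, as for 48.3% of all genes tested. With median centring 8 hosts fell and 1 rose, where 21% of all genes tested fell and 30.1% rose. The hosts' median was then -0.95 and that of all genes 0.08.

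**Figure D3:**
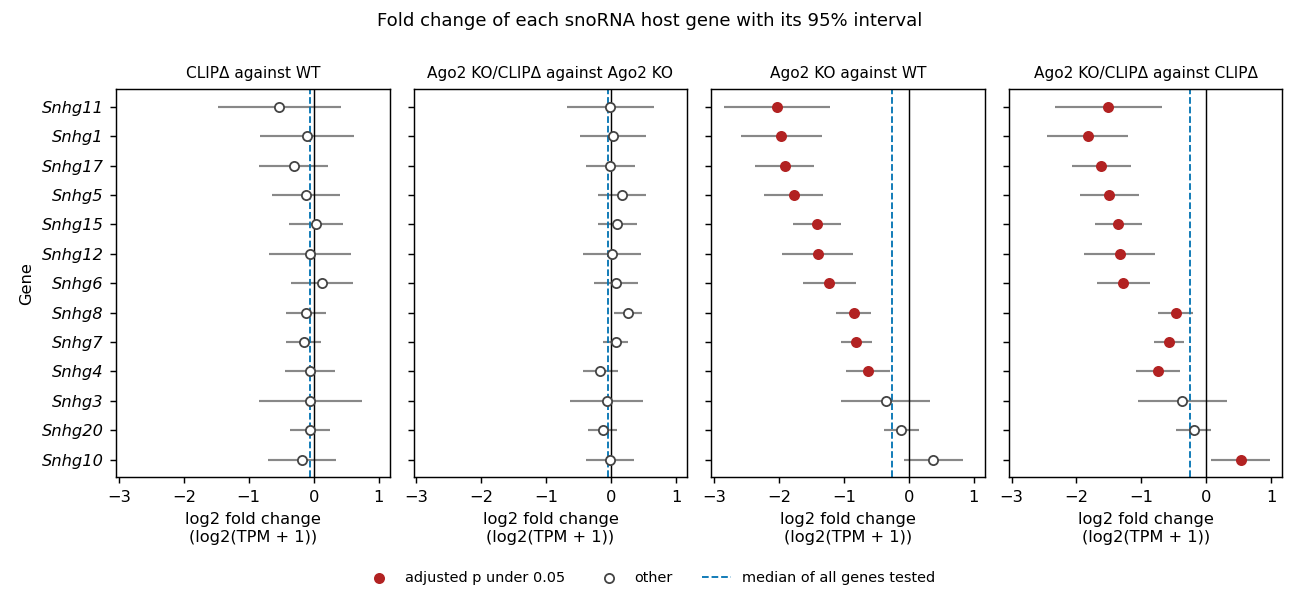
Log2 fold change on the log2(TPM + 1) scale of each of the 13 tested hosts in 4 comparisons, with 95% intervals from limma. Filled red points have an adjusted p under 0.05, open points do not, and the dashed line is the median of all 11287 genes tested. The 10 hosts at the top lie to the left of that line in both comparisons of cells without and with *Ago2*, and no host is called in the CLIPΔ comparisons.

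Deleting the Trim71-binding region of *Ago2* mRNA gave no call among the hosts. In CLIPΔ against WT, 0 of 13 hosts passed the threshold by limma, where 2.27% of all genes did, and 0 had an unadjusted p under 0.05. The differences ran from -0.53 (*Snhg11*, SE 0.43) to 0.13 (*Snhg6*, SE 0.22), with SEs from 0.12 to 0.43. *Snhg11* was the only host of 13 whose CLIPΔ libraries both lay below the WT libraries, as they did for 19.5% of all genes tested. *Snhg1*, which carries 4 Trim71 peaks, differed by -0.11 ± 0.33, with a 95% interval from -0.83 to 0.61. The 3 highest hosts differed by -0.12 ± 0.14 (*Snhg8*), -0.05 ± 0.36 (*Snhg3*), and -0.12 ± 0.24 (*Snhg5*). With 2 libraries a group, of which the CLIPΔ pair lay far apart in *Snhg12*, differences inside such intervals were not detectable by this fit. The fit does not pair libraries by replicate number. With a replicate block within each *Ago2* status, 0 hosts were called by limma, where 4.36% of all genes tested fell and 4.15% rose.

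In *Ago2* KO/CLIPΔ against *Ago2* KO, 0 of 13 hosts passed the threshold by limma, where 0.877% of all genes did, and 1 had an unadjusted p under 0.05, *Snhg8* with 0.26 ± 0.10. The other differences ran from -0.17 (*Snhg4*) to 0.16 (*Snhg5*). The test of whether the effect of CLIPΔ differed with *Ago2* status called 0 of 13 hosts, where 0.647% of all genes were called, and 1 had an unadjusted p under 0.05, again *Snhg8* (0.38 ± 0.17, adjusted p = 0.617). The differences were split by replicate number, a view chosen after the values were seen. In replicates 1 and 2, the *Ago2* KO/CLIPΔ libraries lay below the *Ago2* KO libraries for 9 of 13 hosts, as for 58.9% of all genes tested, and in replicates 3 and 4 they lay above them for 10 of 13, as for 45.4%. For 8 of the 13 hosts both were true, as for 25.6% of all genes tested. *Snhg5* differed by -0.29 in replicates 1 and 2 and by 0.61 in replicates 3 and 4. *Snhg1* differed by -0.38 and 0.44, and *Snhg17* by -0.34 and 0.31. *Snhg8* was above in both, at 0.21 and 0.31. What sets replicates 3 and 4 apart is not given in the labels, and the difference between them was not tested.

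**Figure D4:**
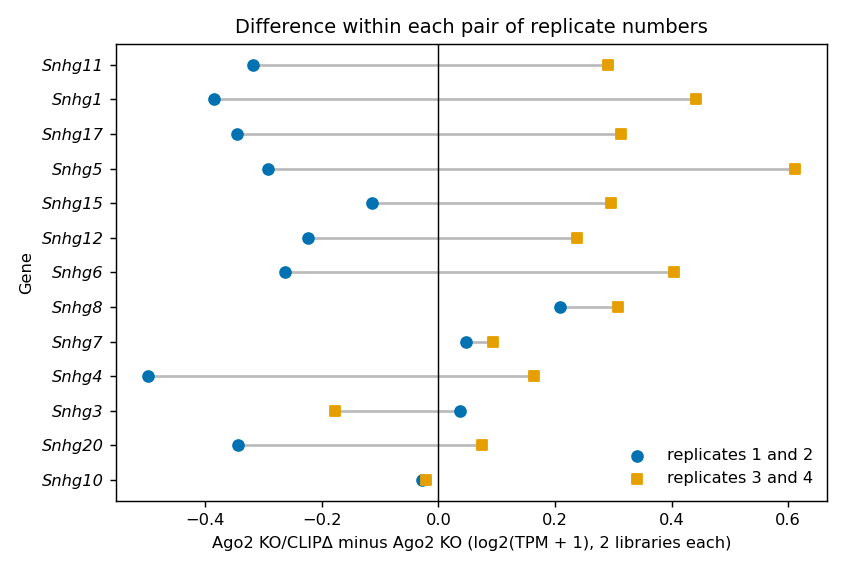
Difference in log2(TPM + 1) between *Ago2* KO/CLIPΔ and *Ago2* KO mESCs for each tested host, for replicates 1 and 2 (blue circles) and replicates 3 and 4 (orange squares), each from 2 libraries of either genotype. The squares of *Snhg5*, *Snhg1*, *Snhg6*, and *Snhg17* lie right of 0 and their circles left of it, while both symbols of *Snhg8* lie right of 0.

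The rows of 3 snoRNAs in the RNA-seq table were looked at, a choice made after the values were seen. Snord47, a C/D snoRNA from an intron of *Gas5*, had a row, with 272 and 199.8 TPM in WT, 232 and 89.1 TPM in CLIPΔ, 42.8 to 55.8 TPM in *Ago2* KO, and 38.2 to 60.8 TPM in *Ago2* KO/CLIPΔ. Its groups with and without *Ago2* did not overlap, and it changed by -2.22 ± 0.30 in *Ago2* KO (limma adjusted p = 0.000176) and by -1.51 ± 0.30 against CLIPΔ (adjusted p = 0.00166). Snord12 and Snord104, which are not among the snoRNAs listed for the hosts described here, went opposite ways in *Ago2* KO. Snord12 fell by 1.28 ± 0.34 (limma adjusted p = 0.00767) and Snord104 rose by 1.63 ± 0.19 (adjusted p = 7.98e-05). Whether the Snord47 reads come from the snoRNA or from unspliced *Gas5* RNA cannot be told apart.

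Hosts outside the *Gas5* and *Snhg* names differed among themselves. Of 4 other noncoding hosts listed, 3 had a value. *Epb41l4aos* changed by -1.19 ± 0.14 in *Ago2* KO and by -1.08 ± 0.14 against CLIPΔ, from means of 177 and 174 TPM with *Ago2* to 77.6 and 81.1 TPM without. *Rian*, an imprinted noncoding RNA that hosts C/D snoRNAs, changed by -1.72 ± 0.17 in *Ago2* KO and by 0.0059 ± 0.17 against CLIPΔ, and its interaction was called (1.73 ± 0.25, limma adjusted p = 0.00655). *Dancr* differed by -0.26 in *Ago2* KO and passed no test. A set of 239 tested long noncoding RNA genes was added after the values were seen. It leaves out the *Snhg* genes, but noncoding hosts of other names were not removed from it. Of these 239, 116 fell and 16 rose in *Ago2* KO, with a median of -0.51. With median centring 67 fell and 38 rose, with a median of -0.16. Over all genes tested, 42.4% fell and 14% rose, and with median centring 21% fell and 31.5% rose.

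Protein-coding genes with snoRNAs in their introns, most of them for ribosomal proteins or translation factors, went both ways. Of 38 such genes, 14 fell, 8 rose, and 16 did not pass the test in *Ago2* KO, where 42.4% of all genes fell and 14% rose. The list's median was -0.14, and against CLIPΔ 15 fell and 6 rose, with a median of -0.14. The direction of this list flipped with median centring, where 7 fell and 14 rose in *Ago2* KO, with a median of 0.21, and 4 fell and 15 rose against CLIPΔ. With centring, 21% of all genes tested fell and 31.5% rose in *Ago2* KO, and 21% fell and 30.1% rose against CLIPΔ. The largest changes were falls of *Eif4a2*, a translation initiation helicase (-1.81 ± 0.26 in *Ago2* KO), *Rpl23a*, a ribosomal protein (-1.28 ± 0.14), *Ncl*, the nucleolar protein nucleolin (-1.26 ± 0.12), and *Eif4g2*, a translation initiation factor (-0.90 ± 0.15). In a list of 19 5′TOP mRNAs, 5 fell and 7 rose, with a median of -0.03. With median centring 1 fell and 10 rose, with a median of 0.31. This list shares *Eef1b2*, *Eef2*, and *Rack1* with the list of 38, so the lists are not separate. *Hnrnpa1* (-0.93) and *Npm1* (-0.70, lost with centring at -0.36, limma adjusted p = 0.0587) fell, while *Eef1d* (0.62) and *Fau* (0.60) rose.

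The proteins that bind and assemble snoRNAs were divided in direction. Of 18 snoRNP core proteins and assembly factors, 7 fell and 6 rose in *Ago2* KO, with a median of -0.12. *Nop56* is in this list and among the protein-coding hosts. With median centring 4 of the 18 fell and 8 rose, with a median of 0.23. Over all genes tested, 42.4% fell and 14% rose, and with median centring 21% fell and 31.5% rose. *Nop58*, a core protein of box C/D particles, changed by -1.41 ± 0.24, *Dkc1*, the pseudouridine synthase of box H/ACA particles, by -0.97 ± 0.15, and *Znhit6*, a box C/D assembly factor, by -0.80 ± 0.11, whereas *Pih1d1*, a subunit of the R2TP assembly complex, rose by 0.92 ± 0.09. Of 10 nonsense-mediated decay factors, 7 fell and none rose, with a median of -0.69. Among them *Upf3b* changed by -1.51 ± 0.14, *Smg1* by -1.36 ± 0.18, and *Upf2* by -1.33 ± 0.16. With median centring 5 fell and 1 rose, with a median of -0.35. Of 5 other transcripts limited by this decay, 1 fell, *Gadd45a* (-1.59 ± 0.32), and the list's median was -0.15, while with median centring 1 fell and 1 rose and the median was 0.20. In CLIPΔ against WT none of these lists of hosts, snoRNP proteins, decay factors, decay targets, and 5′TOP mRNAs held a gene past the threshold. Of all genes tested, 2.27% passed it.

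The starts of the hosts were examined for a pyrimidine tract, the hallmark of 5′TOP genes. RefSeq start sites (GRCm38.p6) were used for 15 of the 18 genes, all but *Snhg4*, *Snhg6*, and *Snhg14*, and the window ran from 10 bases before to 20 after the annotated start. An unbroken run of at least 8 C or T bases on the coding strand occurred in 6 of 15 hosts, against 11.2% of 32851 annotated starts. It was found in *Snhg1* and *Snhg12*, which fell, in *Snhg10*, which was not called lower, and in *Snhg9*, *Snhg16*, and *Snhg18*, whose RNA was not tested. The runs of *Snhg9* and *Snhg10* lay wholly before the annotated start. Those of *Snhg12* and *Snhg18* spanned it, and those of *Snhg1* and *Snhg16* began 4 and 7 bases after it. A run in this window is therefore not by itself a tract at the start of the RNA. The other 6 hosts that fell and had a start had no such run. Their longest runs were 7 bases in *Snhg5* and *Snhg8*, 6 in *Snhg7* and *Snhg17*, 4 in *Snhg15*, and 3 in *Snhg11*. Those of *Snhg8* and *Snhg7* began at base -1 from the annotated start and spanned it. The longest run of *Gas5* was 3 bases. A pyrimidine tract shorter than 8 bases was not counted, so hosts without a run may still hold one at their start. The windows of 3 hosts with a run and of *Snhg5* are given with the longest run in capitals.
*Snhg1*: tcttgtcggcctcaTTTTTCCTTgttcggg
*Snhg12*: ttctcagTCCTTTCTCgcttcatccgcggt
*Snhg10*: ggTTCCTTTTgcggtgattgctacggtaac
*Snhg5*: gcggtgaaccgggctcgTTCTTTTacgacg
A run is a description of these letters around annotated starts, which may not be the starts used in mESCs.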

How the data were processed

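Hosts were *Gas5* and genes named *Snhg* with a number. These genes and the gene lists were chosen with earlier results of these data known. RNA-seq reads were aligned by the authors with HISAT2 (2.1.0) to mm10. HTSeq counts on every gene's longest transcript became the deposited TPM values, 1 column per library. The CLIP-seq list holds peaks common to both immunoprecipitations, which the authors called with CLIPper on STAR alignments after dropping rRNA, tRNA, and mitochondrial sequence. Each deposited peak has a count of reads, and the libraries behind it are not stated. The CLIPΔ columns carry a code and were read as CLIPΔ by elimination. No deposited peak has equal start and end and 29 differ by 1, so starts were read as half-open and are printed 1-based. The small-RNA-seq table, which holds miRNAs, was not used here.

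The log2(TPM + 1) values of genes averaging 1 TPM or more were tested in 1 limma (3.58.1, R 4.3.3) fit over 12 libraries with trended variances, two-sided, with Benjamini–Hochberg adjustment over all 11287 genes at 0.05. The study's own test used read counts with edgeR, which TPM values do not allow. A fold change on this scale understates changes of low genes. The fit was tested on simulated data with noise drawn independently for each gene and library. The real libraries deviated together, as given below, so that test does not measure the error rate here. Every host was named with its level, with fold changes for hosts past the threshold and the 3 highest, and up to 4 genes of each other list, of which 1 is not reported here. snoRNA genes came from GENCODE, and models and starts from RefSeq GRCm38.p6, the same build as mm10.

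Deviations of same-numbered *Ago2* KO and *Ago2* KO/CLIPΔ libraries from their group means correlated across genes at 0.43, 0.32, 0.42, and 0.36. Replicate 1 of either line with replicate 2 of the other gave 0.39 and 0.33, and replicate 3 with replicate 4 gave 0.35 and 0.47. Replicates 1 and 2 of either line against 3 and 4 of the other gave -0.44 to -0.28. These values set replicates 1 and 2 apart from 3 and 4 and do not single out the same number. The replicate block took its pairs from the labels' numbers. Same-numbered WT and CLIPΔ libraries correlated at 0.71 and differently numbered ones at -0.71. With 2 libraries a group the deviations mirror each other, so this is 1 value and not agreement between 2 pairs. Numbers did not pair across *Ago2* status (-0.19 to 0.23). Alternatives were another pseudocount, no filter, median centring, fewer libraries, the replicate block, each library left out, and robust variances.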

Additional observations from a re-analysis of the deposited data

How the results depend on the processing

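The number of hosts called stayed at 0 of 13 in CLIPΔ against WT, in *Ago2* KO/CLIPΔ against *Ago2* KO, and for the interaction under every alternative run. It was 10 to 11 in *Ago2* KO against WT and 9 to 11 in *Ago2* KO/CLIPΔ against CLIPΔ, and leaving out 1 library gave 10 and 9 to 11. With the replicate block the counts were 0, 10, 0, 10, and 0 in the order CLIPΔ against WT, *Ago2* KO against WT, *Ago2* KO/CLIPΔ against *Ago2* KO, *Ago2* KO/CLIPΔ against CLIPΔ, and interaction. The block changed no call among the hosts other than that of *Snhg10*. A block within each *Ago2* status and the joint omission of replicate 1 or of replicate 2 of WT and CLIPΔ were added after seeing the data, and the block again gave 0 calls in its 3 comparisons. Over all tested genes, the replicate block raised the calls in *Ago2* KO/CLIPΔ against *Ago2* KO from 99 to 180.

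Some small differences changed sign, none of them past the threshold, and the cause was not tested. For *Snhg3*, CLIPΔ against WT was 0.0058 with median centring and ranged from -0.15 to 0.0468 with 1 library left out. *Ago2* KO against WT was 0.0617 with the replicate block and 0.0081 with replicates 1 and 2 only. *Ago2* KO/CLIPΔ against CLIPΔ was 0.0419 with the block and 0.0955 with replicates 1 and 2 only. *Ago2* KO/CLIPΔ against *Ago2* KO was 0.0376 with replicates 1 and 2 only and ranged from -0.24 to 0.0869 with 1 library left out, and the interaction was 0.0874 and -0.19 to 0.14. For *Snhg5*, replicates 1 and 2 only gave -0.29 in *Ago2* KO/CLIPΔ against *Ago2* KO and -0.17 for the interaction. CLIPΔ against WT ranged from -0.28 to 0.0398 for *Snhg5* with 1 library left out, and was 0.0757 for *Snhg5* and 0.0657 for *Snhg8* without replicate 2 of both genotypes. With replicates 3 and 4 only, *Snhg3* was called lower in *Ago2* KO (-0.72) and against CLIPΔ (-0.84). Requiring the whole peak to lie inside the snoRNA gene left 4 of 7 peaks.

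Over all tested genes, calls in CLIPΔ against WT went from 256 to 0 when only those libraries were fitted, 510 without the filter on low values, and 960 with the block within *Ago2* status. In *Ago2* KO/CLIPΔ against *Ago2* KO they went from 99 to 0 with replicates 1 and 2 or 3 and 4 only, 364 with only those libraries, and 758 with the block within *Ago2* status. Unknown depth and 2 libraries each of WT and CLIPΔ limit what can be seen.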
